A study of Macaca mulatta with 4 samples.

Results

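The subject here is open chromatin that was called in both androgenetic DNase-seq libraries of rhesus macaque (Macaca mulatta) morulae but in just 1 of the 2 gynogenetic libraries. In an androgenetic (AG) embryo the nuclear chromosomes are all of paternal origin, and in a gynogenetic (GG) embryo all are maternal. A morula is the compact ball of cells that comes before the blastocyst. The study gave 4 libraries, AG replicates 1 and 2 and GG replicates 1 and 2, all digested at 37 °C for 5 min with DNase I (40 U/ml). No other genetic change or treatment is named for either group, and the labels do not say how many embryos went into a library or whether replicates were separate embryos. The lists hold no expression, so the labelled stage was not checked against marker genes.

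Each library came with its own list of hotspots, stretches of DNA with more DNase I cuts than their surroundings, at a false discovery rate of 0.01. The regions were chosen by these calls: hotspots that overlapped or touched were merged over the 4 lists, and a region of chromosomes 1 to 20 was kept when both AG libraries and exactly 1 GG library had a hotspot in it. This gave 3737 regions covering 7.43 Mb, which is 1.68% of the 222776 merged autosomal regions. Because the presence of hotspots defined them, their number and their order of presence are descriptions and carry no test. The lists had 64730 to 93171 hotspots each, with no read counts, so sequencing depth is unknown, and closed chromatin and too few reads cannot be told apart where a call is missing. Positions are on the rheMac8 build, counted from 1. They carry no gene names or sequences because no genome or annotation of that build was used here.

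As background, DNase I reaches DNA where nucleosomes are displaced, which in most cells marks promoters, enhancers and other sites where proteins bind. Sperm and oocyte genomes enter the embryo with very different packaging and DNA methylation, and both are remodelled during cleavage. At imprinted loci a methylation mark set in one germ line persists, so that the paternal and the maternal copy can differ in accessibility and expression. Embryos with chromosomes of a single parental origin let each set be read without the other. A region open in AG and called in 1 GG library lies between the regions shared by all libraries and those seen in AG alone, and the first question was how it differs from both.

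Of 21622 autosomal regions found in both AG libraries, 13158 (60.9%) were also in both GG libraries, 4727 (21.9%) were in neither, and the 3737 regions described here (17.3%) were in exactly 1. The GG hotspot came from replicate 1 in 2098 of them (56.1%) and from replicate 2 in 1639 (43.9%). The mirror pattern, with both GG libraries and exactly 1 AG library, held 8295 regions, which is 24.6% of the 33663 regions found in both GG libraries. There were thus 0.451 regions of the AG pattern for each mirror region. That ratio moved with the length of the lists, being 0.501 with every list shortened by score to the number of the shortest and 0.617 with every list shortened to the covered length of the shortest. The share with GG replicate 1 was 53.3% and 49.8% in those settings, so replicate 1 held no excess at equal covered length. GG replicate 1 also had the longer list of the GG pair, with 93171 hotspots against 84865.

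**Figure D1:**
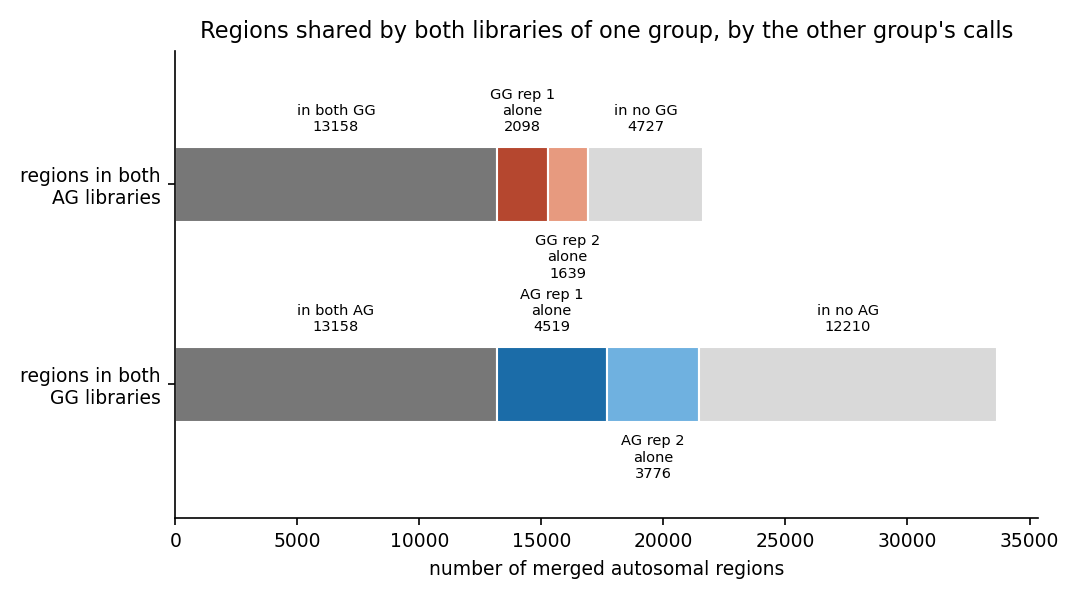
Number of merged autosomal regions (horizontal axis) found in both AG libraries (upper bar) or both GG libraries (lower bar), divided by what was called in the other group; rep stands for replicate. The coloured pieces of the upper bar are the 2098 and 1639 regions described here, and those of the lower bar are the 4519 and 3776 mirror regions.

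These regions were mostly simple in build. Their width ran from 304 to 8919 bp with a median of 1786 bp, above the median of 868 bp over all merged autosomal regions. It lay between the medians of 1328 bp for regions in both AG libraries and no GG library and 2927 bp for regions in all 4. A region called in more libraries joins more hotspots, so this order follows in part from the merging. In 3393 regions of the set (90.8%) each of the 3 libraries contributed 1 hotspot. The covered length was close in the AG libraries, with medians of 1075 bp in AG replicate 1 and 1081 bp in AG replicate 2, and slightly shorter in the GG library, with 981 bp in the 2098 regions of GG replicate 1 and 969 bp in the 1639 of GG replicate 2. A median of 463 bp lay in hotspots of all 3 libraries at once.

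Not every region was a common site, however. In 672 of them (18%) no base pair lay in hotspots of all 3 libraries, so that they were joined through a chain of overlaps. In 152 (4.07%) the AG hotspots did not overlap each other, and the GG hotspot alone joined them. GG hotspots missed those of AG replicate 1 in 226 regions and those of AG replicate 2 in 261. Within a region the AG hotspots shared a median 0.484 of their combined length, against 0.430 for AG replicate 1 with the GG library and 0.434 for AG replicate 2 with the GG library. The 3065 regions with a common base pair had the same makeup as the whole set, with 56.3% in GG replicate 1. That restriction was chosen after the data were seen.

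The regions with the strongest calls are named below. The score is the authors' own value on an unstated scale, so each hotspot was ranked within its own list, where percentile 100 is the top. Only 9 regions had all 3 hotspots in the top 1% of their lists, 30 in the top 5% and 56 in the top 10%. Of the 9, 6 had their GG hotspot in replicate 1 and 3 in replicate 2.

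Ranked by its weakest percentile, the top region was chromosome 17 from 8958274 to 8959467, which scored 57.9 and 109 in AG replicates 1 and 2 and 43.5 in GG replicate 2. Hotspots of these libraries covered 909, 1194 and 722 bp of its 1194 bp. GG replicate 1 had none there, and its nearest hotspot was 3196 bp away. Among regions with GG replicate 2, the next by this rank were a neighbouring pair on chromosome 7. The larger, at 55376164 to 55379023, scored 49.5, 48.3 and 37.5 in AG replicates 1 and 2 and GG replicate 2. The smaller, at 55369438 to 55370416, scored 21, 30.7 and 21.4, but its GG hotspot was only 22 bp long. GG replicate 1 came no nearer than 8282 bp to the first and 4117 bp to the second.

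The other top regions with GG replicate 2 were on chromosome 4 at 93164836 to 93165570, on chromosome 1 at 218548659 to 218550060 and on chromosome 7 at 127938766 to 127939876. The region on chromosome 1 lay 423 bp from a hotspot of GG replicate 1, the shortest distance of these 6. The last, on chromosome 7, had a GG hotspot of 1111 bp, while the AG hotspots in it were 157 bp and 11 bp long and had no base pair in common with each other and the GG hotspot together.

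Among regions with GG replicate 1, chromosome 19 at 22154504 to 22160728 ranked first. Its scores were 38.9, 66.7 and 58.1 in AG replicates 1 and 2 and GG replicate 1, and it lay 1920 bp from a hotspot of GG replicate 2. Of its 6225 bp, AG replicate 2 covered 6102 bp and the other libraries 1890 and 1993 bp, with 262 bp shared. Chromosome 15 at 5077020 to 5080432 came next, with scores of 33.2, 45.6 and 56.9 and 7867 bp to the nearest hotspot of GG replicate 2. A further region on chromosome 15, at 16538097 to 16539552, was the most congruent of the top regions: 1303 of its 1456 bp lay in all 3 libraries, and the lacking library had a hotspot 910 bp away.

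The remaining top regions with GG replicate 1 were on chromosome 2 at 48217893 to 48219593, chromosome 16 at 24981742 to 24984307 and chromosome 8 at 77734671 to 77735384. The region on chromosome 2 was the most isolated of the 12 from the lacking library, at 50655 bp. On chromosome 16 the 3 libraries covered 1968, 2176 and 2198 bp and had 1808 bp in common. The 12 regions thus included congruent sites and sites joined through small pieces.

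**Figure D2:**
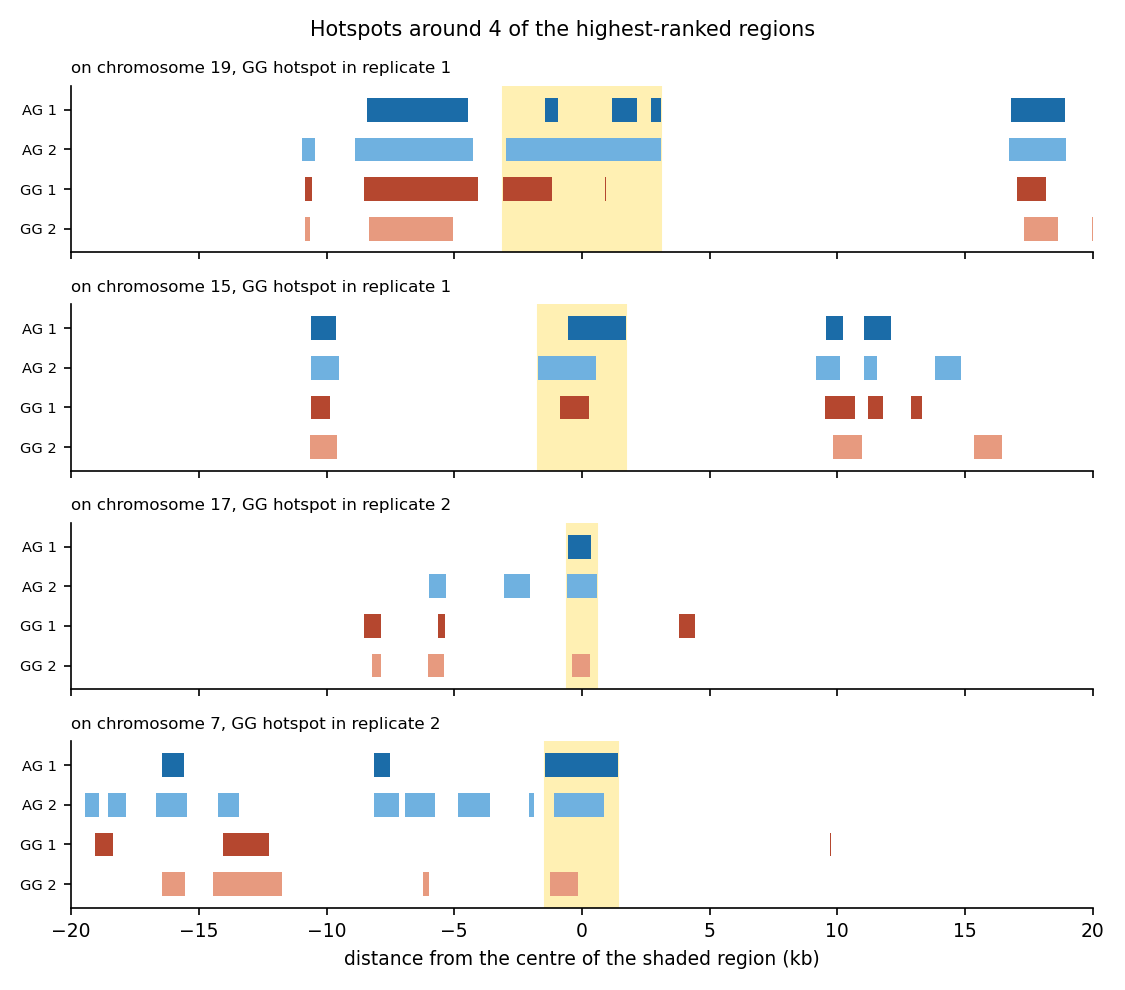
Hotspots of each library (bars, 1 row per library) within 20 kb of the centre of 4 regions (shaded), the 2 highest-ranked with each GG library; the horizontal axis is the distance from the centre in kb. In each panel the shaded region holds hotspots of both AG libraries and 1 GG library, while the lacking GG library has hotspots nearby but none inside.

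In 3 of the 4 mapped neighbourhoods the lacking library had very strong calls beside the region it missed. Beside the chromosome 19 region, GG replicate 2 had a hotspot of score 63.7 (percentile 99.9) from 22149288 to 22152583, where the other 3 libraries also had one. Around the chromosome 15 region it had hotspots of score 49.4 and 116, starting at 5068074 and 5094058. Around the chromosome 17 region GG replicate 1 had hotspots of score 34.5 and 46.6, starting at 8950345 and 8953236. The chromosome 7 region differed, with no hotspot of GG replicate 1 above percentile 76.2 within 20 kb of its centre. These are single regions, picked by rank.

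The widest region with GG replicate 1 was 8919 bp, on chromosome 13 at 62358266 to 62367184, of which AG replicate 1 covered 8243 bp and AG replicate 2 and GG replicate 1 covered 2426 and 2790 bp. With GG replicate 2 the widest was 6476 bp, on chromosome 2 at 159896264 to 159902739, and the GG hotspot in it was 617 bp long. The narrowest were 352 bp on chromosome 14 at 90463681 to 90464032 and 304 bp on chromosome 11 at 11504690 to 11504993.

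The rule counts a library with any hotspot in a region, and some regions passed narrowly. The shortest GG hotspots among them were 11 bp on chromosome 14 at 69091670 to 69092832, 12 bp on chromosome 2 at 13253927 to 13254891 and 16 bp on chromosome 12 at 23689538 to 23690288. Just outside the rule, on chromosome 13 at 107553520 to 107555274, a hotspot of 11 bp in GG replicate 2 made the region one of those in all 4 libraries. In the other direction, 3 regions would have had all 4 libraries if a hotspot of the lacking GG library had lain 3, 5 or 6 bp closer. They were on chromosome 3 at 137915345 to 137917517, chromosome 19 at 45679874 to 45681089 and chromosome 13 at 95773812 to 95775451.

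Scores placed the set between the shared and the AG-only regions in the AG libraries. The median percentile of its strongest hotspot was 64.4 in AG replicate 1 and 68.3 in AG replicate 2. Regions in all 4 libraries had medians of 83.4 and 86.0 there, and regions in both AG and no GG library 54.1 and 59.5. In the GG libraries the medians were lower, 57.2 in replicate 1 and 54.9 in replicate 2, against 88.8 and 88.2 for regions in all 4. These values go with how often a hotspot is found again, which the rule uses, so they are given without a test. Over the 4 library medians the mean was 61.2 ± 6.23 (SD, n = 4). They come from both groups and from unlike sets of regions, so this SD is not a spread of replicates.

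The GG hotspot was the weakest of the 3 by percentile in 1594 regions (42.7%), AG replicate 1 in 1158 (31.0%) and AG replicate 2 in 985 (26.4%). In the mirror pattern the lone AG hotspot was the weakest in 3963 of 8295 regions (47.8%). In regions of all 4 libraries AG hotspots were also the most frequent weakest call, AG replicate 1 in 35.7% and AG replicate 2 in 27.8%, against 17.1% and 19.4% for GG replicates 1 and 2. The lists differ in length, from 64730 to 93171 hotspots, so which percentile is weakest can depend on list length. That part was not measured. All 3 hotspots were in the upper 50% of their lists in 1157 regions (31.0%) and all in the lower 50% in 269 (7.2%). Across the 3737 regions the percentiles of the AG libraries were related weakly to each other (Spearman rho = 0.314) and more weakly to that of the GG library (rho = 0.186 and 0.184). Regions share libraries and are not replicates, so no p is given.

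**Figure D3:**
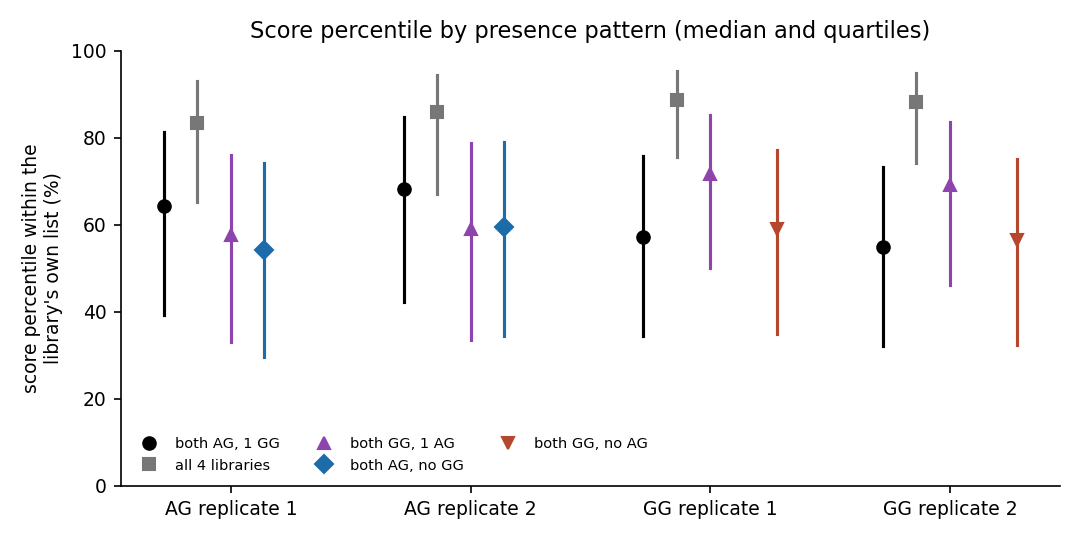
Score percentile within each library's own list (vertical axis, %) for regions of 5 presence patterns; points are medians and lines run from the lower to the upper quartile over regions. Regions in both AG and 1 GG library (black circles) have medians of 64.4 and 68.3 in AG and 57.2 and 54.9 in GG, below regions in all 4 libraries (grey squares) in every library.

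The strongest hotspots of a GG library were in these regions less often than its list as a whole. The rule keeps GG hotspots that the other GG list lacks and AG hotspots that both AG lists hold. The shares below therefore follow in part from the rule and are given without a test. Over each whole list the regions held 6.02% and 4.54% of the hotspots of AG replicates 1 and 2 and 2.33% and 1.99% of those of GG replicates 1 and 2. With each list cut into 10 equal classes of score, the share in AG replicate 1 went from 2.8% in the lowest class to 9.36% in class 9 and 6.19% in the highest. In AG replicate 2 it was 2.51%, 8.33% and 6.44%. The highest class of both AG lists thus stood above its list's average. In GG replicate 1 the share was 1.40% in the lowest class, 3.53% in class 8 and 1.37% in the highest. In GG replicate 2 it was 1.32%, 2.81% and 0.893%. Of the highest class in each library, 63.8 to 71.2% lay in regions of all 4 libraries instead.

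The gap from the edge of a region to the nearest hotspot of the lacking GG library was also measured. It tells how close a separate call lay, not how near the signal inside the region came to a call. The median gap was 4838 bp, and 669 regions (17.9%) had such a hotspot within 1 kb. The share was 17.1% where GG replicate 2 lacked the call and 19% where GG replicate 1 did. Regions in both AG and no GG library had a hotspot within 1 kb less often, in 12% of cases for GG replicate 1 and 10.7% for GG replicate 2. Mirror regions had a hotspot of the lacking AG library within 1 kb in 13.7%. The AG lists cover less DNA, 67.8 and 84.3 Mb in replicates 1 and 2 against 102 and 93.2 Mb for GG. Within 5 kb the share was 50.8% in the set, 43.5% in the mirror pattern, and 40.7 and 38.2% in the AG-only regions. The share within 1 kb depends on the length of the lists. For the set it was 14.7% with lists of equal number and 12.3% with lists of equal covered length. The other patterns were not measured in those settings. The difference between the patterns was not tested, since regions are not replicates.

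The 669 near hotspots were ordinary ones, with a median percentile of 58.9 and a median width of 1031 bp. Of these, 236 (35.3%) were seen in no other library, 167 (25%) lay in a region of all 4 libraries and 92 (13.8%) in a region of both GG and no AG library. The near hotspots were thus of several presence patterns.

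Hotspots in the surroundings of the regions did not decide membership, although they come from the same 4 lists and the merging sets the edges. Within 10 kb on each side, outside the regions themselves, hotspots covered 6.06% and 6.55% of the DNA in AG replicates 1 and 2 and 7.68% and 7.2% in GG replicates 1 and 2. Over all autosomal DNA outside the regions the shares were 2.37%, 2.98%, 3.74% and 3.43%. The flanks were thus richer in hotspots than the rest by 2.56-fold and 2.20-fold in AG replicates 1 and 2 and by 2.05-fold and 2.10-fold in GG replicates 1 and 2. On the log2 scale the AG mean was 1.25 ± 0.157 and the GG mean 1.05 ± 0.0236 (SD, n = 2 libraries each), a difference of 0.19. The AG libraries lay above the GG libraries without overlap, but a two-sided exact permutation test of 2 against 2 libraries gave p = 0.333, the smallest it can give. The scaling is not free of the rule. Leaving out the regions removed 6.96% and 5.58% of the autosomal covered length of AG replicates 1 and 2. In GG replicates 1 and 2 it removed 2.25% and 1.86%. This raises the scaled values more in AG, and its part in the difference was not measured.

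Leaving out a library changed the rule as well as the libraries compared. With the rule applied to the 3 libraries left, the AG minus GG difference was 0.02 without AG replicate 1 and 0.20 without AG replicate 2. It was 0.000657 without GG replicate 1 and 0.03 without GG replicate 2. There the rule takes any region in both AG libraries and the GG library left (14653 and 15147 regions). No GG library then lacks a call, so these values do not show whether the difference holds for the set. Unscaled flank coverage was lower in AG, with a log2 difference of -0.24. AG replicate 1 also stood above AG replicate 2 around regions of all 4 libraries, at 2.37-fold and 1.93-fold, where the GG libraries were at 2.08-fold and 2.12-fold. Around mirror regions the order of the groups was turned, at 2.15-fold and 1.86-fold in AG and 2.32-fold and 2.33-fold in GG. Library by library, flanks of the set minus flanks of the mirror regions came to 0.24 ± 0.00819 on the log2 scale for the AG pair and -0.16 ± 0.0170 for the GG pair (SD, n = 2 each). The groups differed by 0.41 in this measure, with no overlap (two-sided exact permutation p = 0.333, again the smallest possible). It compares regions that the rules put on opposite sides, and the scaling follows the rules too. Unscaled GG coverage of set and mirror flanks was close, at 7.68% and 7.82% in replicate 1 and 7.2% and 7.14% in replicate 2. GG coverage outside was lower for mirror regions, at 3.37% against 3.74% in replicate 1 and 3.06% against 3.43% in replicate 2. In AG the unscaled flank coverage differed, at 6.06% and 5.07% in replicate 1 and 6.55% and 5.61% in replicate 2. The part of the scaling in the 0.41 was not measured.

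The lacking GG library was not empty around the regions. Where GG replicate 2 lacked the call, its hotspots still covered 7.31% of the flanks, 2.10-fold its share elsewhere, and GG replicate 1 reached 2.11-fold. Where GG replicate 1 lacked the call it covered 7.63% of the flanks, or 2.0-fold, and GG replicate 2 reached 2.12-fold. In both AG-only and GG-only regions the group without calls was lower in the flanks: 1.54-fold and 1.57-fold for the GG libraries around AG-only regions, and 1.70-fold and 1.47-fold for the AG libraries around GG-only regions.

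**Figure D4:**
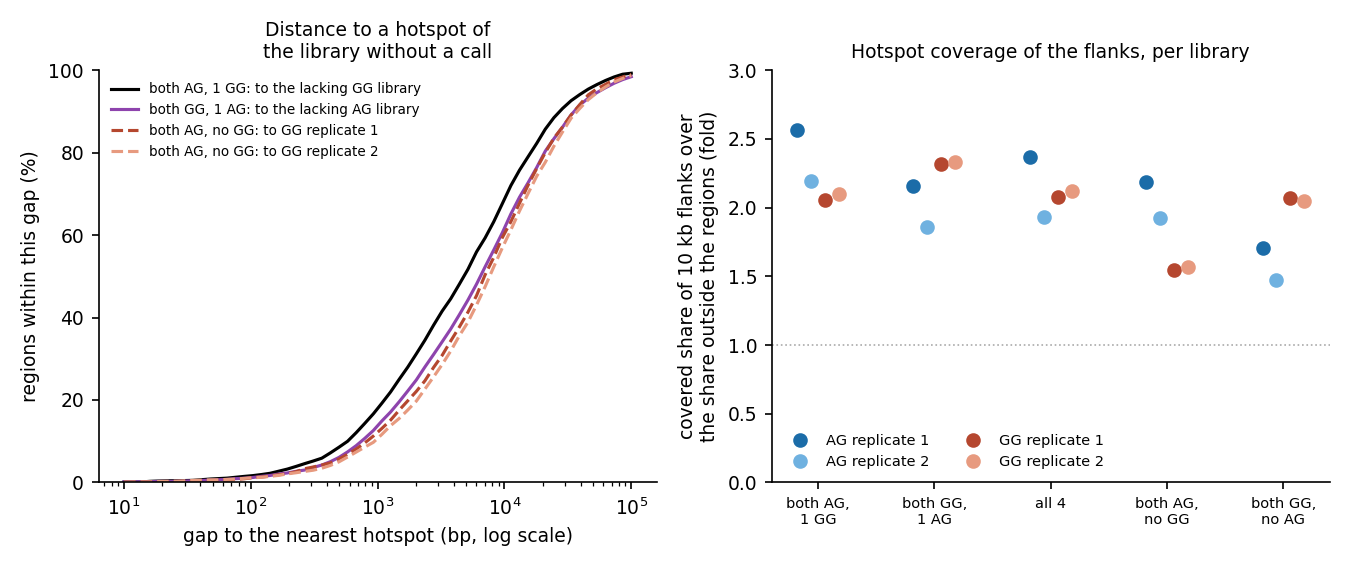
Left, share of regions (%) whose nearest hotspot of the library without a call lies within a given gap (bp, log scale). Right, covered share of the 10 kb flanks divided by the covered share outside the regions (fold), 1 point per library; the dotted line marks 1. At a gap of 1 kb the curve of the set stands at 17.9%, above the others, with lists of unequal length. The flanks of the set are enriched 2.56-fold and 2.20-fold in AG and 2.05-fold and 2.10-fold in GG.

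The regions were scattered, and a minority lay within 10 kb of shared open chromatin. A region of all 4 libraries was within 10 kb of 1025 of them (27.4%), with a median gap of 30.6 kb. For mirror regions the share was 25.4% and for AG-only regions 21.8%. AG-only regions were within 10 kb of 10.2% of the set and of 5.94% of mirror regions, while GG-only regions were within 10 kb of 14.4% and 22.2%. The set thus lay near AG-only regions more often than mirror regions did, and near GG-only regions less often. GG-only regions, 12210 in number against 4727 AG-only regions, were the nearer kind for both. These shares were not tested. The set itself had a median spacing of 299 kb, and 179 of 3717 gaps between neighbours (4.82%) were 10 kb or less.

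Of 2683 windows of 1 Mb, 1074 (40.0%) held no such region and 680 (25.3%) held 1. The 172 windows with 5 or more held 1054 regions, 28.2% of the set. The fullest was chromosome 19 from 17000001 to 18000000 with 14, of which 7 had each GG library, beside 11 mirror regions and 25 regions of all 4 libraries. Chromosome 19 from 1 to 1000000 had 12, with 5 mirror regions and 15 of all 4. Next came chromosome 1 from 31000001 to 32000000 and chromosome 19 from 12000001 to 13000000 with 11 each, and chromosome 16 from 4000001 to 5000000 with 10. Regions of all 4 libraries outnumbered the set in each of these windows.

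Along the autosomes the set followed shared open chromatin closely. Its density was 1.40 per Mb on average, from 0.762 on chromosome 5 to 4.96 on chromosome 19, followed by 2.91 on chromosome 16, 2.05 on chromosome 10 and 2.03 on chromosome 20. Across the 20 autosomes it rose with the density of regions in all 4 libraries (Pearson r = 0.990, Spearman rho = 0.919; both come from the same lists). For each region of all 4 libraries there were 0.284 of the set on all autosomes together. This ratio was lowest on chromosome 2 (0.253) and highest on chromosome 17 (0.403), chromosome 18 (0.364) and chromosome 3 (0.350). Dense chromosome 19 was among the lower ones, at 0.265.

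Against the mirror pattern the chromosomes differed more. There were 0.758 regions of the set for each mirror region on chromosome 19, 0.697 on chromosome 20, 0.550 on chromosome 16 and 0.531 on chromosome 10, but 0.319 on chromosome 8 and 0.377 on chromosome 2. Across the 20 autosomes the ratio to mirror regions rose with the density of regions in all 4 libraries (Pearson r = 0.754, Spearman rho = 0.562). Both come from the same lists. On chromosome 19 the set numbered 266 and the mirror regions 351. That ratio was 0.857 with lists of equal number, 0.967 with lists of equal covered length and 0.569 when only the upper 50% of scores was used, and it was above the ratio over all autosomes in each of these (0.501, 0.617 and 0.433). Leaving out a library changes the rule and moved it to 0.455 without either AG library, where the ratio over all autosomes was 0.658 and 0.580, so that chromosome 19 then lay below the rest. Without GG replicate 1 or 2 it was 1.93 and 1.76, above the ratio over all autosomes (1.01 and 0.948).

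Which GG library held the hotspot was uneven on a few chromosomes. On chromosome 18 it was GG replicate 1 in 64 of 75 regions (85.3%), against 56.1% over all autosomes. Regions with GG replicate 1 were the more numerous in 7 of its 8 stretches of 10 Mb, the exception being the last, which had 1 of each. Chromosome 19 (67.7%), chromosome 13 (65.7%) and chromosome 16 (63.1%) followed. GG replicate 2 held more than GG replicate 1 only on chromosome 7 (47.5% in replicate 1) and chromosome 5 (49.0%).

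The hotspot lists were uneven in the same direction on most of these chromosomes but not on chromosome 5. GG replicate 1 supplied 60.9% of the GG hotspots on chromosome 18, 60.4% on chromosome 13, 55.8% on chromosome 16, 54.7% on chromosome 19 and 43.7% on chromosome 7, against 52.3% over all autosomes. On chromosome 5 it supplied 55.0% of the hotspots, above that share, while its share of the set was below that of all autosomes. Across the 20 autosomes both shares were related (Pearson r = 0.732, Spearman rho = 0.617), and the part of list length in the uneven split was not tested. On chromosome 18, 59.9% of the 362 regions in both AG libraries were found in GG replicate 2 and 74.6% in GG replicate 1. Over all autosomes these shares were 68.4% and 70.6%. Chromosome 18 stood at 84.6% with lists of equal number, 79% with lists of equal covered length and 70.7 to 72.5% without an AG library, and chromosome 19 at 59.1% with lists of equal covered length, where all autosomes together were at 49.8%. Both were chosen after the data were seen, and with 1 library for each side a chromosome and a library cannot be told apart.

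**Figure D5:**
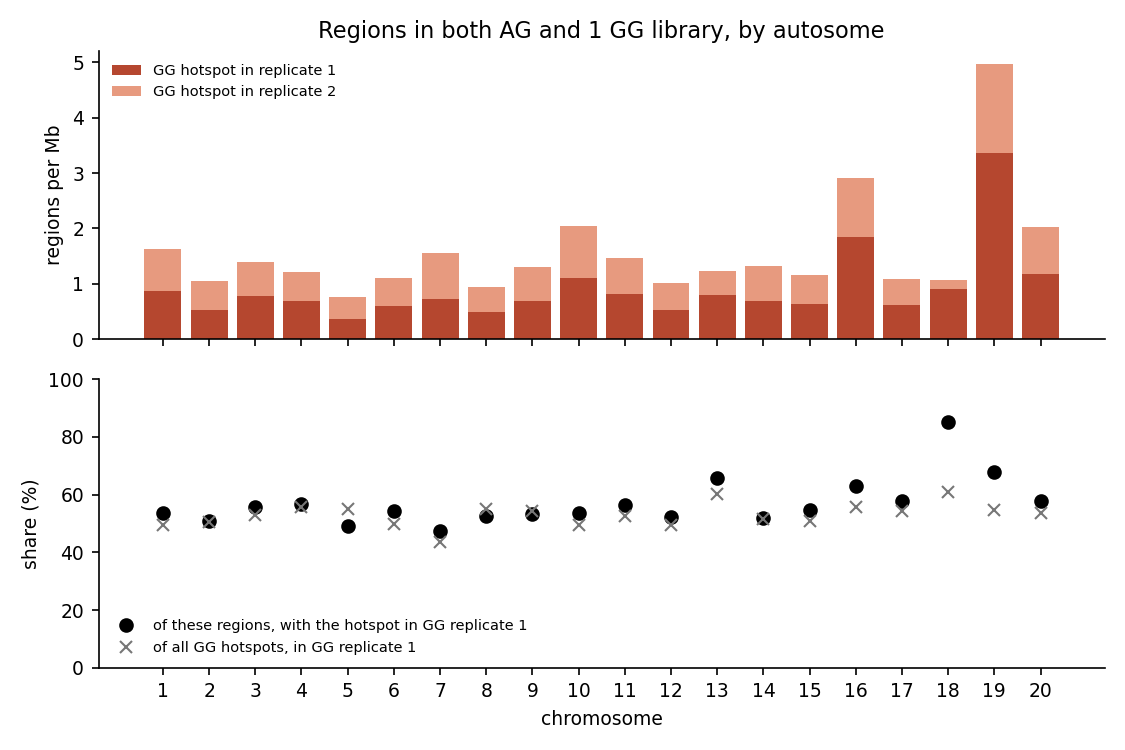
Upper panel, regions of the set per Mb of each autosome, stacked by the GG library that holds the hotspot. Lower panel, share (%) of the set with its hotspot in GG replicate 1 (circles) and share of all GG hotspots that come from GG replicate 1 (crosses). Chromosome 19 is the densest at 4.96 per Mb, and chromosome 18 has the highest share of GG replicate 1, 85.3%.

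Membership depended on the lists used. With lists shortened to equal number, 2619 of the 3737 regions (70.1%) still met the rule and 598 (16%) became regions of both AG and no GG library. With lists shortened to equal covered length, 2035 (54.5%) still met it and 1082 (29.0%) had lost their GG call. Using only the upper 50% of scores, 1156 (30.9%) still met it, among 2164 regions that did so in all, and 633 (16.9%) had both AG libraries and no GG library. When a library had to cover at least 50% of a region, 1300 (34.8%) still met the rule. Merging hotspots within 150 bp turned 131 regions (3.51%) into regions of all 4 libraries and kept 3606 (96.5%). Dropping hotspots under 100 bp kept 3671 (98.2%).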

How the data were processed

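DNase-seq hotspot lists of 2 AG and 2 GG libraries were used, 1 list per library. Each deposited list gives positions and a score of unstated scale. The submitters' processing notes name rheMac8 as the build, and deepTools 3.3.1, SAMtools, Bowtie2 and Trim Galore without saying what each did. For the hotspot caller, the name is not given in the sources used here. Members and tests were chosen with earlier results of these data known. Autosomal hotspots that overlapped or touched were merged, and presence needed 1 bp. Scores became midrank percentiles within a list. Gaps ran from region edges. Flank coverage was scaled to coverage outside the regions, with the last hotspot as chromosome end, and compared by an exact permutation test over libraries. Named were, per GG library, the 6 regions up to 20000 bp with the highest lowest percentile, the widest and narrowest, the 5 fullest windows, and 3 regions of each kind at the edges of the rule. Replicate numbers were not shown to mark shared embryos or batches. No 2 lists shared more than 3 identical intervals. Merging, gaps and flanks were tested on simulated data. Alternatives were shortened lists, coverage, merging, width, flank and gap limits, and leaving out libraries. The work was done in Python 3.11.15 with pandas 2.3.3, matplotlib 3.10.9, scipy 1.17.1 and numpy 2.4.6.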

Additional observations from a re-analysis of the deposited data

How the results depend on the processing

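Depth is unknown, and the exact permutation test of 2 against 2 libraries cannot go below 0.333, so its p-value says nothing here about stability. Using only the upper 50% of scores, the number of regions was 2164, the share with a hotspot of the lacking GG library within 1 kb was 11.3% and the ratio to mirror regions was 0.433. With lists of equal number the share with GG replicate 1 was 53.3%, the share within 1 kb 14.7% and the ratio 0.501. With lists of equal covered length these were 49.8%, 12.3% and 0.617. With 50% of a region covered, the share within 1 kb was 59.9%, since hotspots inside a region that do not count are then near ones, the median percentile was 77.5 and the ratio 0.418. Merging within 150 bp gave 15.2% within 1 kb. By construction, limits of 200 bp and 5 kb gave 3.32% and 50.8%. Leaving out a library changes the rule: the number of regions was 10206 to 15147, the ratio 0.580 to 1.01 and the median percentile 51.4 to 84.3. The share with GG replicate 1 and that within 1 kb have no value without a GG library. The flank difference (0.19 on the log2 scale) was reversed when not scaled (-0.24). In that measure the larger covered length of both GG lists also counts. All other alternatives left it above 0. It was 0.25 with the upper 50% of scores, 0.17 with lists of equal number and 0.08 with lists of equal covered length. Without GG replicate 1 or 2 it was 0.000657 and 0.03, values that do not show whether it holds for the set. With the replicate number as a block (replicate block) it was again 0.19, with pairs of 0.32 and 0.06 and an exact sign-flip p of 0.5.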
